A study of Mus musculus with 8 samples.

Results

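The liver turns the nitrogen of amino acids into urea and breaks down their carbon skeletons, and 33 genes of this work are described here across 4 sorted cell groups of injured mouse liver. The genes were chosen by name, as enzymes of the urea cycle and of the breakdown of glutamine, serine, glycine, glyoxylate, proline, tyrosine, tryptophan, methionine, histidine and lysine. All 33 were found among the 21968 named genes of the files, and all 33 had enough reads to be tested. In the textbook liver the urea cycle and most of these pathways run in hepatocytes, with ammonia entering through Cps1 in the mitochondrion and urea leaving through Arg1 in the cytosol. Macrophages are known to use arginine as well, through arginases and the inducible nitric oxide synthase Nos2. Tryptophan breakdown through the kynurenine pathway is also known from immune cells.

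All 4 groups came from Lgr5-LacZ transgenic mice of mixed C57BL/6 and CBA background, killed 6 days after 1 intraperitoneal dose of the liver toxin CCl4 at 1 µl per g body weight in rapeseed oil. Mice were 10 to 12 weeks old by the sample labels, while the series text sets the lower limit at 7 weeks. The groups were hepatocytes, pelleted at low speed, EpCAM-positive cells (cholangiocytes in the words of the series text) and F4/80high cells with (b-gal+) or without (b-gal-) β-galactosidase activity. F4/80 is a macrophage antigen and EpCAM an antigen of bile duct epithelium. Each group had 2 libraries, and each library pooled cells of 2 mice. No group was free of CCl4, so nothing here compares injured with uninjured liver. The labels do not say whether libraries of different groups came from the same mice, and p-values measure only the spread between these libraries.

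The libraries held 16948568 to 24549242 reads in named genes, and 3 reads corresponded to 0.122 to 0.177 counts per 1000000 reads (CPM) before scaling. Levels below are CPM scaled with TMM factors, a correction for differences in library composition, with n = 2 libraries a group. The summed level of 15 hepatocyte markers was 261848 and 329016 CPM in hepatocyte replicates 1 and 2 and 290 to 6085 CPM in the other 6 libraries. The sum of 10 endothelial markers was 19693 and 22855 CPM in the b-gal- libraries, 8382 and 7007 CPM in the EpCAM-positive libraries, 3972 and 2982 CPM in the b-gal+ gate and 434 and 1052 CPM in hepatocytes. The sum of 10 macrophage markers was 35164 and 31587 CPM in b-gal+ cells but only 3339 and 2278 CPM in b-gal- cells. Epcam was at 88.5 and 214 CPM in the EpCAM-positive libraries and at most 1.47 CPM elsewhere. All 10 endothelial markers were called higher in each of the 3 other groups than in hepatocytes, with median log2 differences of 4.96 in b-gal-, 3.52 in EpCAM-positive and 1.76 in b-gal+ cells. In bulk libraries of this kind, fewer cells of a type and less RNA per cell cannot be told apart.

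The 33 enzymes took 3.42% and 3.66% of the reads in the hepatocyte libraries and 0.0248% to 0.127% in the other 6. Nearly all were lower outside hepatocytes. By limma on log2(CPM + 0.5), with Benjamini-Hochberg adjusted p under 0.05 as a call, 32 of 33 were lower in EpCAM-positive cells, against 29.1% of the 14404 genes tested. The count was 32 of 33 lower in b-gal+ cells, against 29.6% of genes, and 31 of 33 in b-gal- cells, against 29.7%. None of the 33 was called higher in EpCAM-positive cells, where 33.5% of genes were. In b-gal+ cells 1 was, against 29.5% of genes, and in b-gal- cells 1 was, against 33.5%. The median log2 difference of the enzymes was -8.07 in the EpCAM-positive, -8.57 in the b-gal+ and -9.67 in the b-gal- group, where that of all genes was 0.15, 0.10 and 0.17. These 3 comparisons share the hepatocyte libraries. Ass1 is counted among the lower calls in each, although it had 0 reads outside hepatocytes. It passed the low-count filter through its hepatocyte reads alone, so it could only come out lower and its calls give no support.

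**Figure D1:**
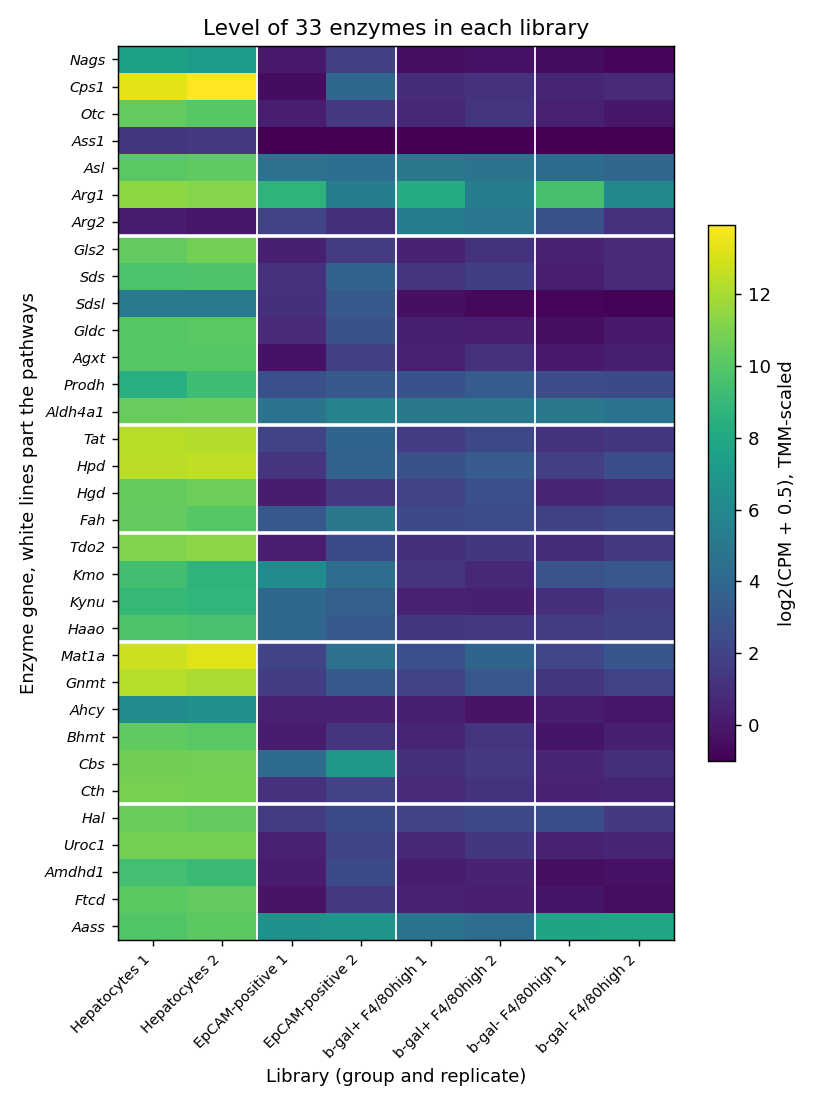
Level of each of the 33 enzymes (rows, grouped by pathway) in each of the 8 libraries (columns), as log2(CPM + 0.5). Hepatocyte columns are brightest for every row but Arg2, and Arg1, Aass, Asl and Aldh4a1 are the rows that stay visible across the other columns.

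The regulatory sequence before the start of these genes was read for motifs of general and liver promoters, since the enzymes differed together between the cell groups. Only genes with a single RefSeq window on GRCm38.p6 were used, 23 of the 33. The 250 bases before the start were searched on both strands. CCAAT was found in 12 of 23 windows (52.2%), against 33.9% of 32841 windows of all genes, and TATAAA in 4 (17.4% against 12.4%). TTGCNNAA, a C/EBP form, was in 3 (13% against 9.57%), and CAAAGTCCA, an HNF4 form, was in 0 against 0.384%. The single-window rule was not applied to the windows of all genes, so the shares come from sets chosen differently and are not like for like. These shares are descriptions of letters, not of bound sites. The windows of 2 enzymes, chosen after their values were seen, are shown as a pair that differ outside hepatocytes. Tdo2 stayed below 1% of its hepatocyte mean in all 6 other libraries, and Aass stayed above it in all 6. Capitals mark the matches: TATAAA and a reversed CCAAT in Tdo2, and 2 reversed CCAAT and a reversed TTGCNNAA in Aass. Tdo2 is chr3:81975729-81975978 and Aass chr6:23132987-23133236, both on the minus strand and written 5′ to 3′ along the gene. In the gene models used here for positions, the Tdo2 window, set by its RefSeq start, lies inside the gene (81957090 to 81976202). The Aass window lies directly before its gene.
Tdo2: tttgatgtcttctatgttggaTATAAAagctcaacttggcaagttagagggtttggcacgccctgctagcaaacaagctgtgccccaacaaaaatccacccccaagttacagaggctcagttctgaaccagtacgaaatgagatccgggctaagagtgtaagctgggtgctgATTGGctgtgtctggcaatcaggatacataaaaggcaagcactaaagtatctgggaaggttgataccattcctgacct
Aass: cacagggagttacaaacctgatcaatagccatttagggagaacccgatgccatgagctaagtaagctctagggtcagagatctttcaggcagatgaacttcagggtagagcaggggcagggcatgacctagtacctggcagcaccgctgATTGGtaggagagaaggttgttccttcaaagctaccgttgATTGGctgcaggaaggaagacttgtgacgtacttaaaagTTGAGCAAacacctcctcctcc

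Within hepatocytes the enzymes spanned a wide range per length of exon. That length joins all annotated exons of a gene, so the order also depends on the annotation. Gnmt, which consumes surplus methyl groups, was highest at 3848 CPM per kb, followed by the tyrosine enzyme Hpd at 2650, the methionine enzyme Mat1a at 2382, Cps1 at 2318 and the aminotransferase Tat at 2056 CPM per kb. The replicates of Hpd (2538 and 2761), Mat1a (2040 and 2723), Cps1 (1819 and 2818) and Tat (2170 and 1941 CPM per kb) gave no firm order, since only those of Hpd and Tat did not overlap. Arg1 followed at 1125 CPM per kb. The lowest were Ahcy at 30.7, the serine dehydratase-like Sdsl at 22.7, Ass1 at 0.924 and Arg2 at 0.400 CPM per kb. Between the hepatocyte replicates the enzymes kept close levels: 18 of 33 were higher in replicate 2, with a median ratio of 1.03. The ratios ran from 0.605 for Kmo to 1.91 for Prodh, the first enzyme of proline oxidation.

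**Figure D2:**
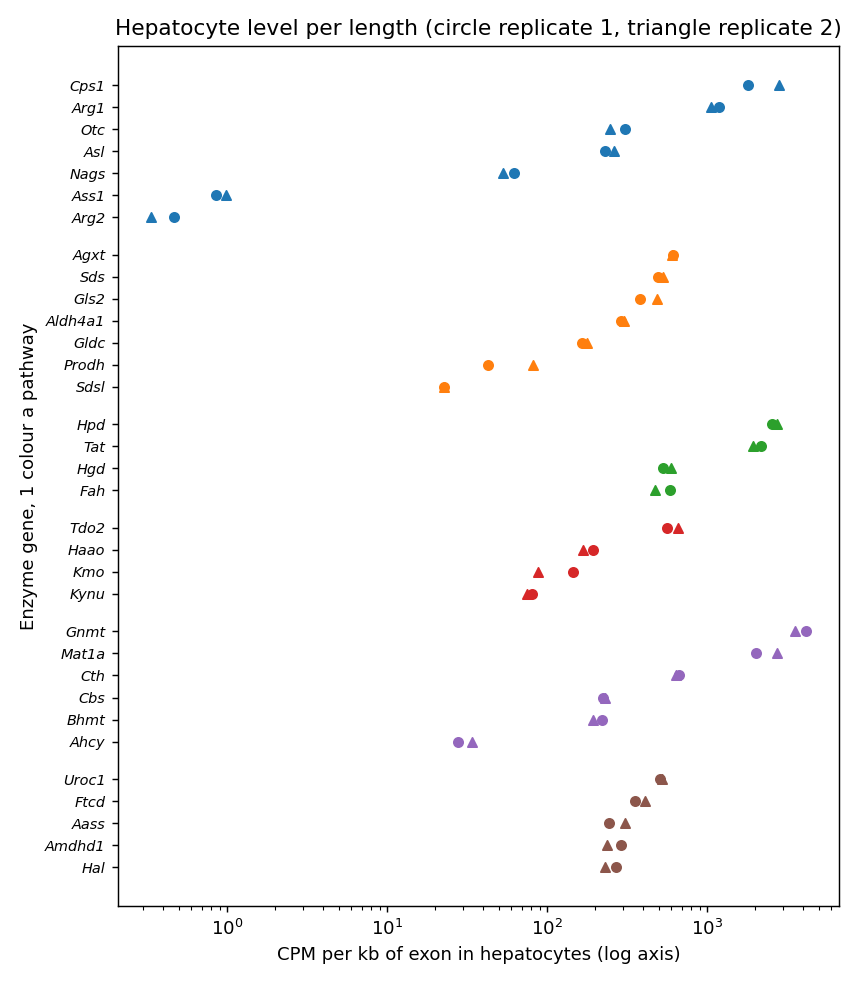
Hepatocyte level of each enzyme in CPM per kb of exon on a log axis, with circles for replicate 1, triangles for replicate 2 and 1 colour for each pathway. Gnmt, Hpd, Mat1a, Cps1 and Tat are the 5 highest, and Ass1 and Arg2 lie near or below 1.

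Levels of Ahcy and Ass1 are uncertain, since both have near-identical copies and how shared reads were assigned is not stated. Ahcy, which clears S-adenosylhomocysteine, shares 68.7% of its 50-base stretches with other genes, chiefly Gm4737. Gm4737 held 8297 and 10009 reads in the hepatocyte libraries, where Ahcy held 1052 and 1186. Ass1, the argininosuccinate synthase of the urea cycle, held only 28 and 30 reads in hepatocytes, the tissue in which it is known to be abundant, and 0 reads in all 6 other libraries. It shares 38.6% of its stretches with Gm5424, which held 0 reads in all 8 libraries, and the part of this copy in the low count was not tested. The Ass1 level was at least 15.2-fold lower outside hepatocytes, against a floor of 3 reads in each library. With 0 reads elsewhere, Ass1 passed the low-count filter through its hepatocyte reads alone. Aldh4a1 shares 30% of its stretches with Gm21969, which overlaps it on the same strand, and Bhmt shares 26.1%, chiefly with Gm5096. Exons of Arg2 (28.1%), Sds (29.6%) and Nags (15.6%) overlap genes on the other strand, and no source used here says whether counting used the strand.

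Of the urea cycle enzymes, Cps1 and Otc stayed below 1% of their hepatocyte mean in all 6 other libraries. Ass1 had 0 reads there, but its hepatocyte level is too low for the floor to resolve 1%. Asl and both arginases stayed above 1% in all 6, and Nags lay between. Cps1 (chromosome 1, 67123026 to 67231259, GRCm38), which makes carbamoyl phosphate, was at 0.213 and 15.3 CPM in EpCAM-positive, 1.39 and 1.65 CPM in the b-gal+ gate and 0.960 and 1.22 CPM in b-gal- replicates 1 and 2, against 10102 and 15656 CPM in hepatocytes. Both hepatocyte libraries lay far above all 6 of these, and EpCAM-positive replicate 2 stood above the other 5. Cps1 was lower by log2 differences of -11.87 ± 1.24 (SE), -12.61 ± 1.24 and -12.95 ± 1.24 in EpCAM-positive, b-gal+ and b-gal- cells (limma, adjusted p at most 2.33e-04). Otc, which forms citrulline, stood at 1300 and 1053 CPM in hepatocytes and at 0.489 to 2.24 CPM elsewhere. Nags, which makes the activator of Cps1, stood at 176 and 151 CPM in hepatocytes and at 0.0978 to 3.07 CPM elsewhere. Both were lower in each of the 3 other groups.

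Asl, which splits argininosuccinate into arginine and fumarate, was lower outside hepatocytes but present in every library. It stood at 24.0 and 21.2 CPM in EpCAM-positive, 30.1 and 26.1 CPM in the b-gal+ gate, 18.6 and 14.6 CPM in the b-gal- gate and 1123 and 1262 CPM in hepatocyte libraries. The b-gal+ libraries were the highest of the other 6 and the b-gal- libraries the lowest, without overlap. Asl was 1.68-fold higher in b-gal+ than in b-gal- cells (limma, adjusted p = 0.0217). It no longer passed when b-gal- replicate 2 was left out (adjusted p = 0.167), nor without b-gal+ replicate 1 (0.129) or 2 (0.0634), nor with edgeR (0.0610).

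Arg1 (chromosome 10, 24915221 to 24927484), the cytosolic arginase that releases urea, varied more between replicate numbers than between the 3 other groups. It was at 2647 and 2366 CPM in hepatocyte replicates 1 and 2. In replicate 1 of the EpCAM-positive, b-gal+ and b-gal- groups it was at 426, 294 and 769 CPM, and in replicate 2 at 38.2, 39.5 and 66.3 CPM. Every replicate 1 outside hepatocytes was thus above every replicate 2, by 11.1-fold, 7.42-fold and 11.6-fold within the 3 groups, whereas the hepatocyte replicates differed by 1.12-fold. Slc7a2, the arginine transporter, had the same order, with ratios of 3.70, 3.36 and 10.8, and 0.789 in hepatocytes. Nos2, which makes nitric oxide from arginine, was low in all libraries, at 0.716 to 2.15 CPM in replicate 1 and 0.161 to 0.898 CPM in replicate 2 of these groups, with 0.0738 and 0.0798 CPM in hepatocytes. Over the enzymes with reads in every library, the median ratio of replicate 1 to 2 was 0.289 in EpCAM-positive, 0.780 in the b-gal+ and 0.817 in the b-gal- group, on the other side of 1 from Arg1. Spp1, listed here as a cholangiocyte marker, also stood 12.3-fold and 16.1-fold higher in replicate 1 of b-gal+ and b-gal- cells, and 11.4-fold in hepatocytes, but lower in EpCAM-positive replicate 1 (1837 CPM) than in replicate 2 (5686 CPM). What sets the replicates apart was not tested.

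The Arg1 calls had wide errors beside this spread. Arg1 was lower than in hepatocytes by log2 differences of -4.28 ± 1.56 in EpCAM-positive cells (limma, adjusted p = 0.0471) and -4.53 ± 1.56 in b-gal+ cells (0.0409). In b-gal- cells the difference of -3.46 ± 1.56 did not pass (adjusted p = 0.0907), although no library overlapped the hepatocytes. The EpCAM-positive call was lost without replicate 2 of that group (adjusted p = 0.226) or hepatocyte replicate 1 (0.165) or 2 (0.148). The call in b-gal+ cells ended without b-gal+ replicate 2 (0.207) or hepatocyte replicate 1 (0.156) or 2 (0.139). With edgeR both were lost (0.104 and 0.0793). In limma both also ended with library totals in place of TMM (adjusted p = 0.123 and 0.0768) and with the deposited scaling (0.130 and 0.0894). The same held with no low-count filter (0.0642 and 0.0569), and a pseudocount of 2 ended the EpCAM-positive call (0.0522). The b-gal- difference passed with the replicate number as a block (adjusted p = 0.0107) and without b-gal- replicate 1 (0.0360).

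Arg2 (chromosome 12, 79130777 to 79156301), the mitochondrial arginase, was the only enzyme of the 33 with its lowest level in hepatocytes. It was at 38.4 and 28.1 CPM in the b-gal+ gate, 5.91 and 1.66 CPM in the b-gal- gate, 3.65 and 1.57 CPM in EpCAM-positive and 0.664 and 0.479 CPM in hepatocyte libraries. Both b-gal+ libraries lay above all others, and both hepatocyte libraries below all others. Arg2 was 31.2-fold higher in b-gal+ cells than in hepatocytes (limma, adjusted p = 3.33e-04) and 8.95-fold higher than in b-gal- cells (adjusted p = 0.00960). The second call needed both b-gal- replicate 2 (adjusted p = 0.0504 when left out) and b-gal+ replicate 1 (0.0641). Macrophage markers also stood higher in b-gal+ than in b-gal- cells, in 9 of 10 called with a median log2 difference of 3.71, and their part in the Arg2 difference was not tested. In b-gal- cells Arg2 was 3.49-fold higher than in hepatocytes (adjusted p = 0.0296), a call that ended when b-gal- replicate 1 (0.171), b-gal+ replicate 2 (0.0518), hepatocyte replicate 1 (0.0968) or hepatocyte replicate 2 (0.136) was left out. In EpCAM-positive cells the log2 difference of 1.46 did not pass (adjusted p = 0.0625), though it did with the replicate block (0.0164). Per length of exon, Arg2 stood at 26.9 and 19.7 CPM per kb in b-gal+ replicates 1 and 2 and Arg1 at 132 and 17.7, so the order of the 2 arginases differed between these libraries.

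**Figure D3:**
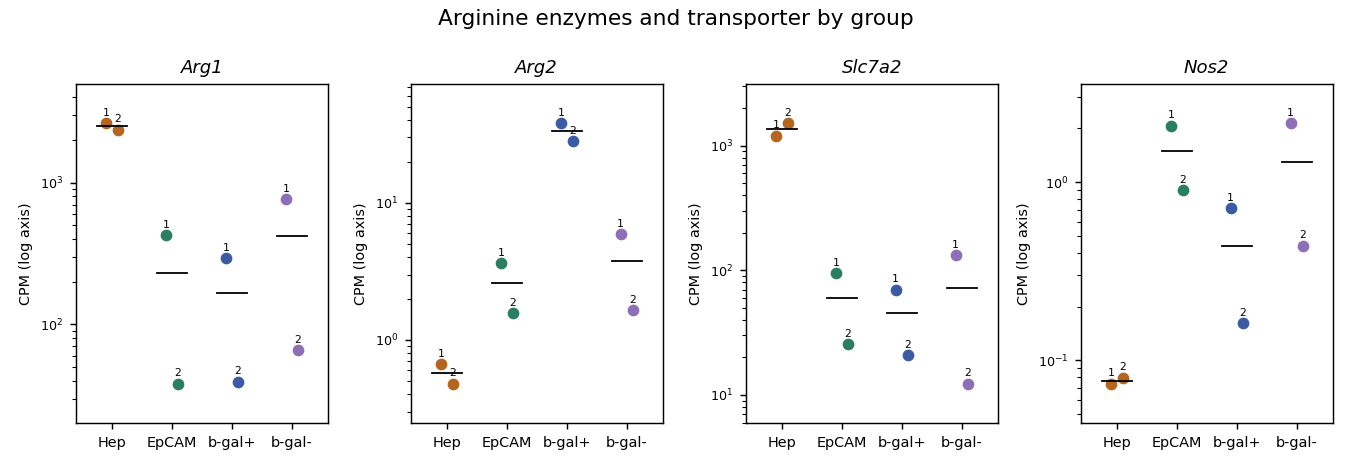
CPM on a log axis of Arg1, Arg2, the arginine transporter Slc7a2 and Nos2 in hepatocytes (Hep), EpCAM-positive, b-gal+ and b-gal- cells, with each point a library marked by its replicate number and each bar a mean of 2. Outside hepatocytes, replicate 1 lies above replicate 2 in every panel, and Arg2 alone is highest in b-gal+ cells.

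The 7 enzymes of glutamine, serine, glycine, glyoxylate and proline were all called lower in each of the 3 other groups. Gls2, the glutaminase of liver, stood at 1322 and 1706 CPM in hepatocytes and at 0.760 to 2.54 CPM elsewhere. Sds, the serine dehydratase, stood at 844 and 894 CPM in hepatocytes and at 0.691 to 12.4 CPM elsewhere. Gldc, of the glycine cleavage system, and Agxt, which detoxifies glyoxylate, stood above 1000 CPM in both hepatocyte libraries and at most at 5.95 and 2.99 CPM outside them. Prodh and Aldh4a1, the first and second steps of proline breakdown, were retained at low levels, with Aldh4a1 at 26.5 to 49.6 CPM and Prodh at 4.60 to 9.73 CPM in the other 6 libraries. Aldh18a1, a proline synthesis enzyme, was higher outside hepatocytes, at 70.0 and 53.8 CPM in b-gal+ cells against 2.14 and 1.76 CPM (25.3-fold, adjusted p = 1.35e-04).

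The 4 tyrosine enzymes were lower outside hepatocytes in all 3 comparisons. Tat, which removes the amino group of tyrosine, stood at 5218 and 4669 CPM in hepatocytes and at 1.80 to 13.8 CPM elsewhere, and Hpd at 5401 and 5876 against 1.95 to 12.4 CPM. Hgd, which opens the homogentisate ring, was at 3.67 and 5.75 CPM in the b-gal+ gate and 0.998 and 1.47 CPM in b-gal- cells. The groups did not overlap, and the 2.97-fold difference just passed (limma, adjusted p = 0.0484). It was lost in 11 of 18 alternatives, among them edgeR (0.0671) and the removal of any 1 of the b-gal+, b-gal- and hepatocyte libraries (0.0951 to 0.229). Fah, the last step of the pathway, was at 8.21 and 29.3 CPM in EpCAM-positive cells and 3.15 to 5.07 CPM in the F4/80high libraries.

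In the methionine and transsulfuration group, 6 of 6 enzymes were lower in each comparison with hepatocytes. Mat1a, which makes S-adenosylmethionine, stood at 7075 and 9444 CPM in hepatocytes and 3.71 to 23.6 CPM elsewhere. Gnmt stood at 5002 and 4280 against 2.07 to 8.94 CPM, Bhmt, which remethylates homocysteine with betaine, at 1275 and 1116 against 0.384 to 2.02 CPM, and Cth, which releases cysteine, at 1861 and 1792 against 0.845 to 3.74 CPM. Mtr, the methionine synthase that remethylates homocysteine with folate, had the opposite order, at 11.3 and 11.7 CPM in hepatocytes and 101 and 103 CPM in b-gal+ cells (8.55-fold, adjusted p = 4.35e-05). The histidine enzymes Hal, Uroc1, Amdhd1 and Ftcd, which together carry histidine to glutamate, stood at 579 to 1822 CPM in hepatocytes and at 0.230 to 5.45 CPM elsewhere. All 4 were called lower in each comparison.

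Set as a percentage of the hepatocyte mean, 19 of the 33 enzymes stayed below 1% in all 6 other libraries. Their highest value was 0.955%. Ass1 is among them through its 0 reads, which bound it only as at least 15.2-fold lower. Another 5 stayed above 1% in all 6, namely Asl, Arg1, Arg2, Aldh4a1 and Aass. The remaining 9 were Nags, Sds, Sdsl, Prodh, Fah, Kmo, Kynu, Haao and Cbs. For scale, the 15 hepatocyte markers had medians of 0.118% and 0.371% in EpCAM-positive, 0.180% and 0.268% in the b-gal+ gate and 0.0914% and 0.137% in b-gal- replicates 1 and 2. The enzymes' medians were 0.124% and 0.566%, 0.108% and 0.166%, and 0.0653% and 0.0987% in the same libraries. Arg2 and Aass lay above the highest marker in all 6 libraries, and Asl, Arg1 and Aldh4a1 in 5. Nags, Cps1, Otc, Tat, Tdo2, Mat1a and 13 further enzymes lay above it in none.

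**Figure D4:**
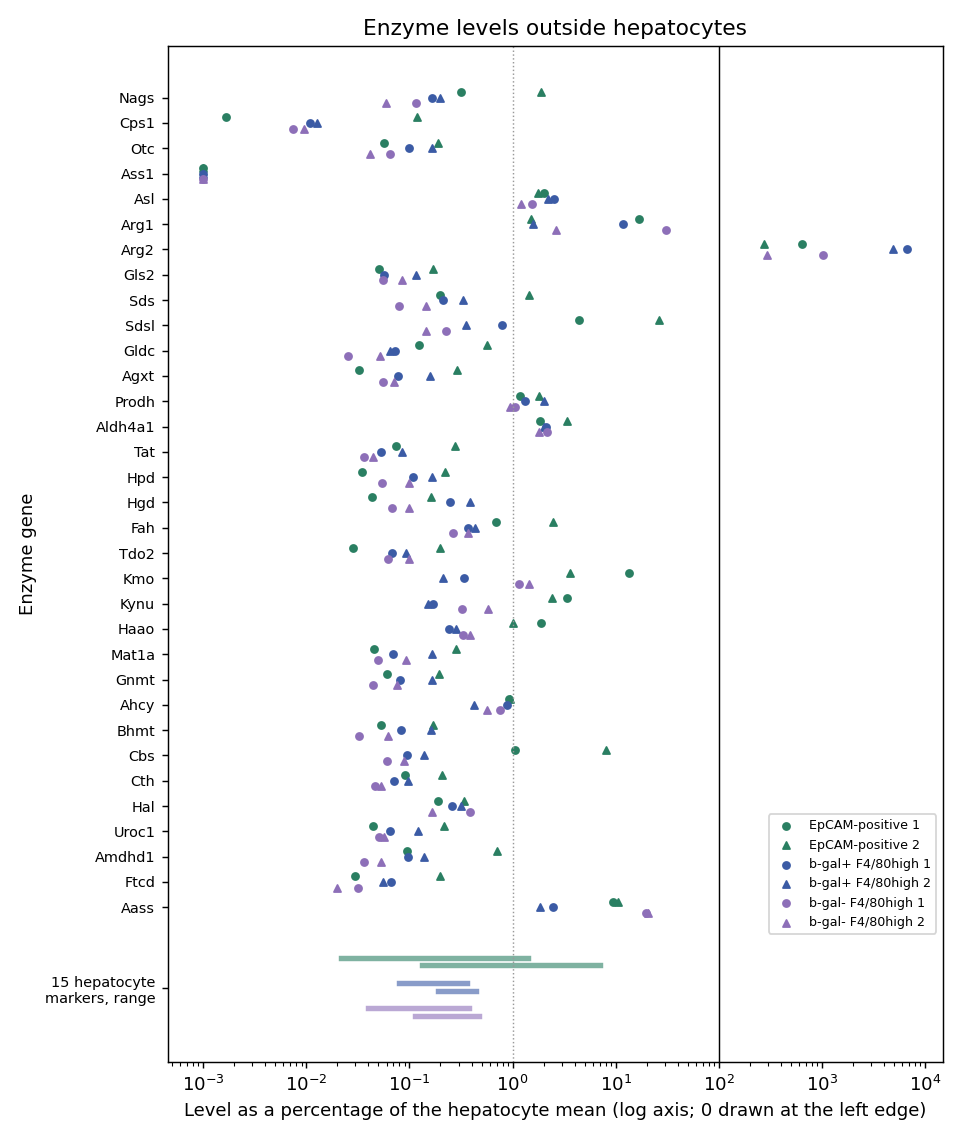
Level of each enzyme in the 6 libraries outside hepatocytes as a percentage of the hepatocyte mean, on a log axis, with the range of 15 hepatocyte markers in each library as bars at the foot. Ass1, at 0 in all 6, is drawn at the left edge. Arg2 lies above 100% throughout, and most enzymes lie within or below the marker bars.

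Aass (chromosome 6, 23072173 to 23132986), which starts lysine breakdown, differed most clearly between the b-gal gates. It was at 208 and 215 CPM in the b-gal- gate, 99.9 and 112 CPM in EpCAM-positive, 26.2 and 19.6 CPM in the b-gal+ gate and 935 and 1174 CPM in hepatocyte libraries. The 4 groups did not overlap, and replicates were close in each. Aass was lower in b-gal+ than in b-gal- cells by 3.19 ± 0.19 on the log2 scale, a 9.15-fold difference (limma, adjusted p = 9.01e-04), and the call held in all 18 alternatives. The summed endothelial markers stood in the same order over the 3 groups outside hepatocytes, although Cdh5 was lower in EpCAM-positive than in b-gal+ cells. Of the 10 markers, 9 were called lower in b-gal+ than in b-gal- cells, with a median log2 difference of -3.20. Their part in the Aass difference was not tested. Nos3, the endothelial nitric oxide synthase, and Hdc, which makes histamine, were also lower in b-gal+ cells (9.31-fold and 7.61-fold, adjusted p = 9.08e-04 and 0.00353). Dhtkd1 and Gcdh, further along lysine breakdown, did not pass between these gates (adjusted p = 1.00 and 0.366).

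Between the b-gal gates as a whole, 3 of 33 enzymes were called higher in b-gal+ cells (Asl, Arg2 and Hgd), against 10.4% of genes tested. Those called lower were 2 of 33, Aass and Kynu, against 13.0% of genes. Both shares are near or below the background. Without regard to the test, 21 enzymes had both b-gal+ libraries above both b-gal- libraries, 4 had both below and 8 overlapped. Over all genes tested, 33.8% had both above and 35.2% both below. The median log2 difference was 0.48 for the enzymes, -0.02 for all genes and 0.83 for the 15 hepatocyte markers, of which 0 passed. Kynu, a kynureninase, was at 0.805 and 0.724 CPM in the b-gal+ gate and 1.54 and 2.79 CPM in b-gal- cells. Its call (limma, adjusted p = 0.0477) was lost in 10 of 18 alternatives, among them the replicate block (0.0532) and the removal of b-gal- replicate 2 (0.279), of either b-gal+ library (0.139 and 0.202) or of either hepatocyte library (both 0.111). Of 85 partner genes of the same pathways, 10 were called higher and 3 lower. Beside Nos3 and Hdc, which were lower, the partners with the largest differences among those called higher were Gpt2, an alanine aminotransferase (7.78-fold), Afmid, which hydrolyses formylkynurenine (5.91-fold), and Qprt, of NAD synthesis (5.64-fold).

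EpCAM-positive cells were then set against the mean of the 2 F4/80high gates. Of the 33 enzymes 7 were called higher, against 10.6% of genes tested, and 1 lower, against 9.20%. Kynurenine enzymes made up 3 of the 7. Kmo (chromosome 1, 175620381 to 175662116), the kynurenine hydroxylase, was at 75.3 and 19.9 CPM in EpCAM-positive, 6.45 and 7.93 CPM in the b-gal- gate, 1.88 and 1.17 CPM in the b-gal+ gate and 691 and 418 CPM in hepatocyte libraries. Kynu was at 16.1 and 11.5 CPM in EpCAM-positive cells and at 0.724 to 2.79 CPM in the F4/80high libraries. Haao, which forms the precursor of quinolinate, was at 16.0 and 8.60 CPM against 2.06 to 3.28 CPM. For all 3 both EpCAM-positive libraries lay above all 4 F4/80high libraries and below both hepatocyte libraries.

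The differences were 10.1-fold for Kmo, 7.81-fold for Kynu and 3.94-fold for Haao (limma, adjusted p = 0.00715, 0.00224 and 0.00468), and all 3 calls held in all 18 alternatives. Tdo2, the liver enzyme that starts the pathway, did not pass with all libraries: it was at 0.669 and 4.71 CPM in EpCAM-positive cells and 1.46 to 2.35 CPM in the F4/80high libraries (adjusted p = 0.960). It was called higher without EpCAM-positive replicate 1 (log2 difference 1.12, adjusted p = 0.0343). Ido1, which starts the pathway in immune cells, was at 1.19 and 0.411 CPM in EpCAM-positive cells and at most 0.154 CPM elsewhere (adjusted p = 0.0424). All 3 enzymes and Ido1 were higher in EpCAM-positive replicate 1 than in replicate 2, the reverse of Epcam. A list of 10 dendritic cell markers, added after these values were seen, summed to 1331 and 618 CPM in EpCAM-positive replicates 1 and 2. It summed to 274 and 313 CPM in the b-gal- gate, 141 and 160 CPM in the b-gal+ gate and 12.2 and 14.1 CPM in hepatocytes. None of its genes was at 0 in the EpCAM-positive libraries, and 6 of 10 were called higher there than in F4/80high cells. Its genes did not all go one way: Flt3 was at 186 and 53.1 CPM in EpCAM-positive replicates 1 and 2 but Cd209a at 6.23 and 31.0 CPM. Zbtb46 was higher in b-gal- (67.4 and 83.4 CPM) and Batf3 in b-gal+ cells (30.6 and 46.3 CPM) than in either EpCAM-positive library. Macrophage markers summed to 1135 and 241 CPM there. The part of either list in the kynurenine enzymes was not tested.

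Cbs, Sdsl and Fah had the other order within the EpCAM-positive pair. Cbs (chromosome 17, 31608894 to 31637238), which joins homocysteine and serine, was at 17.9 and 137 CPM in EpCAM-positive replicates 1 and 2 and at 1.04 to 2.37 CPM in the F4/80high libraries. Sdsl was at 1.49 and 8.94 CPM against 0.0489 to 0.268 CPM. The F4/80high values of Sdsl rest on 2 and 1 reads in b-gal- and 6 and 3 reads in b-gal+ replicates 1 and 2. They lie at or near the floor of 3 reads, so the fold of Sdsl leans on the pseudocount. For Cbs and Sdsl both EpCAM-positive libraries lay above all F4/80high libraries, and replicate 2 was the higher by a wide margin. Cbs was 24.2-fold higher (limma, adjusted p = 0.00715) and held in all 18 alternatives. Sdsl was 6.95-fold higher (0.0180) and did not pass without either b-gal- library (0.0514 and 0.0508) or without b-gal+ replicate 2 (0.0610). The 3.44-fold difference of Fah (0.0363) was lost without EpCAM-positive replicate 2 (0.0600) and without any 1 of the F4/80high or hepatocyte libraries (0.0677 to 0.0946). Cholangiocyte markers summed to 2092 and 6753 CPM in EpCAM-positive replicates 1 and 2, of which Spp1 alone was 1837 and 5686 CPM and Sox9 30.0 and 201 CPM. Spp1 was also at 1263 CPM in b-gal- replicate 1, and it did not pass against F4/80high cells (limma, adjusted p = 0.147). Of the 10 markers, 9 were called higher in that comparison. Hepatocyte markers summed to 940 and 6085 CPM, of which Alb alone was 652 and 4704 CPM. Ambp, the highest of the 15 in replicate 2, was at 7.01% of its hepatocyte mean there, and their median was 0.371%. Against F4/80high cells 3 of the 15 were called higher and 1 lower, with log2 differences from -1.04 to 3.74. The part of either list in the differences of Cbs, Sdsl and Fah was not tested.

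The remaining calls were Aass and Arg2. Aass was 1.51-fold higher in EpCAM-positive cells (limma, adjusted p = 0.0486), but its EpCAM-positive libraries lay between those of the 2 gates, and the call was lost in 12 of 18 alternatives. These include the removal of any 1 library (0.0552 to 0.190). Arg2 was 3.80-fold lower (0.0383), a call lost in 10 of 18, among them the removal of EpCAM-positive replicate 2 (0.183), of b-gal- replicate 1 (0.0700), of either b-gal+ library (0.106 and 0.0826) or of either hepatocyte library (0.0819 and 0.0831). The Arg2 libraries of EpCAM-positive cells (3.65 and 1.57 CPM) overlapped those of the b-gal- gate (5.91 and 1.66 CPM). They lay below both libraries of the b-gal+ gate only (38.4 and 28.1 CPM). The number of enzymes called higher changed with the library left out, as did the number over all genes tested. Cps1 changed sides with 1 library: it was 1.88-fold higher with all libraries (adjusted p = 0.613) and lower by 1.29 on the log2 scale without EpCAM-positive replicate 2 (0.0337).

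**Figure D5:**
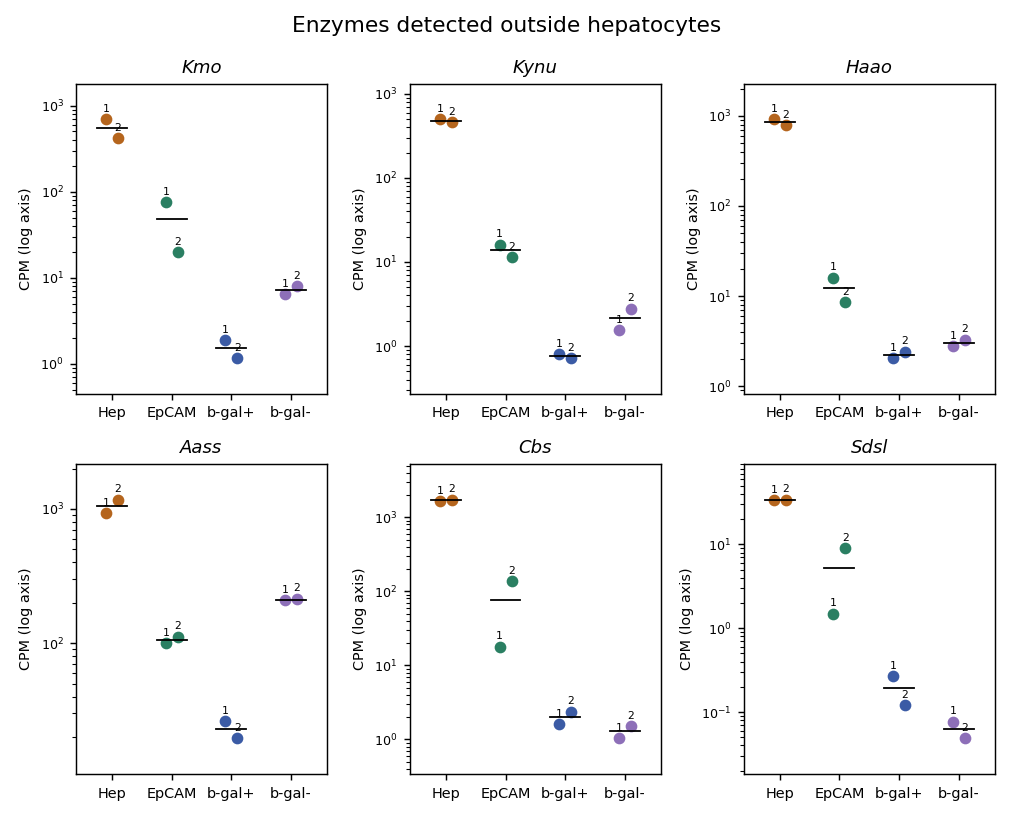
CPM on a log axis of Kmo, Kynu, Haao, Aass, Cbs and Sdsl in hepatocytes (Hep), EpCAM-positive, b-gal+ and b-gal- cells, with each point a library marked by its replicate number and each bar a mean of 2. Kmo, Kynu and Haao are higher in EpCAM-positive replicate 1, Cbs and Sdsl in replicate 2, and Aass is lowest in b-gal+ cells.

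The partner genes, which surround the 33 enzymes in their pathways, were less uniform. Of 85 tested, 65 were lower and 12 higher in EpCAM-positive cells than in hepatocytes, 65 and 6 in b-gal+ cells, and 66 and 7 in b-gal- cells. The lower calls were 76.5%, 76.5% and 77.6% of partners against 29.1%, 29.6% and 29.7% of all genes, and the higher calls 14.1%, 7.06% and 8.24% against 33.5%, 29.5% and 33.5%. Their medians were -3.70, -3.65 and -4.02 on the log2 scale, closer to 0 than those of the enzymes. The branched-chain group, whose breakdown is known to start outside the liver, had 19 tested members, of which 17, 16 and 17 were lower. Among the largest called differences were Dmgdh, of choline breakdown, at 907-fold, 760-fold and 1374-fold lower, and Prodh2, of hydroxyproline breakdown, at 628-fold, 846-fold and 805-fold lower. Against the F4/80high gates, partners called higher in EpCAM-positive cells included Chdh, a choline dehydrogenase, at 23.4 and 135 CPM (28.2-fold) and Pipox, a pipecolate oxidase, at 9.21 and 51.0 CPM (18.1-fold). As with Cbs and Sdsl, replicate 2 was the higher library for both.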

How the data were processed

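RNA of 8 libraries in 4 groups was sequenced. Per the submitters' processing notes, reads were counted with HTSeq on GRCm38.p4 (mm10); the aligner, annotation, versions and scaling step are not given in the sources used here. Hepatocyte replicate 1 was deposited as read counts, and the values of the other 7 libraries are counts that the authors multiplied by 1 factor per library. Dividing by the value of 1 read (the smallest step, refined on larger values where it was rounded) gave whole reads for 100% of values within 0.01 reads. Rows named by a number, 14 in each file with 0.0514% to 0.182% of reads, were left out.

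Genes past edgeR's low-count filter (14404) were tested with limma 3.58.1 with a trend on log2(TMM CPM + 0.5), two-sided, all 8 libraries in 1 fit, p-values adjusted by Benjamini-Hochberg over all genes; TMM, edgeR 4.0.16 and DESeq2 1.42.0 ran in R 4.3.3. The fold of a low gene is understated by the pseudocount. TMM factors were 0.527 to 1.48. They were first computed over all genes; the filtered genes were kept as the main choice after both sets of calls had been seen, to follow earlier processing of these data, and the all-gene factors are an added alternative. The fit was also run on simulated counts in which few genes differed between groups and the spread was fixed. Those settings are simpler than these data, so that run gives no support to the calls here. Positions and exon lengths come from GENCODE M21. The 33 enzymes, the lists and the tests were chosen with earlier results of these data known. Each enzyme is accounted for, and partner genes are named by rule: at each end of the called differences, the 3 most extreme with a mean of at least 10 CPM; a few items that this rule or the motif search covers are not reported here, and other partner genes were chosen after their values were seen, as was the dendritic list. The floors cover counting error only, and the standard errors (SE) come from the spread between libraries in the fit.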

Additional observations from a re-analysis of the deposited data

How the results depend on the processing

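Over 18 alternatives (17 planned and the all-gene TMM factors, which were added after the data were seen), the 33 enzymes gave 594 fits a comparison. The call, and the direction of each called difference, stayed as reported in 575 fits for EpCAM-positive cells, 587 for b-gal+ and 586 for b-gal- cells against hepatocytes. The count was 559 between the b-gal gates and 532 for EpCAM-positive against F4/80high cells. A change of sign with no call in either fit is counted here as unchanged. Among changes that involve a call, the only reversal was Cps1 in the last comparison: leaving out 1 library gave -1.29 (without EpCAM-positive replicate 2) to 3.12 (without replicate 1).

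Against hepatocytes the enzymes called higher in EpCAM-positive cells went from 0 to 1 (Arg2) with edgeR, DESeq2, the replicate block, library totals, the deposited scaling and a pseudocount of 0.1, and those in b-gal- cells from 1 to 0 with a pseudocount of 2. Between the b-gal gates the higher calls went from 3 to 1 with edgeR and the deposited scaling, and the lower calls from 2 to 1 with median-ratio scaling, a pseudocount of 2, no filter and all-gene TMM. Against F4/80high cells the higher calls went from 7 to 13 with DESeq2, and the lower from 1 to 0 with edgeR, library totals, the deposited scaling and no filter. The count of 13 is given without the DESeq2 share over all genes, so it is not read as a result about the enzymes. Leaving out 1 library gave, for higher and lower calls, 0 to 1 and 31 to 32 (EpCAM-positive), 1 and 31 to 32 (b-gal+), 0 to 1 and 31 to 32 (b-gal-), 0 to 3 and 1 to 3 (b-gal gates), and 4 to 18 and 0 to 2 (F4/80high).

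Counts over all genes depend on scaling, since library totals move the median log2 difference of all genes by up to 1.22 and the deposited scaling by up to 1.17. Higher and lower calls were 4823 and 4186 for EpCAM-positive cells against hepatocytes, 9665 and 1651 with library totals, and 9525 and 1698 with the deposited scaling. For b-gal+ cells 4254 and 4268 became 7336 and 2360, and 7560 and 2303; for b-gal- cells 4826 and 4275 became 8341 and 2239, and 8566 and 2179. Against F4/80high cells 1524 and 1325 became 2703 and 618 with library totals, with 731 lower under the deposited scaling, and between the b-gal gates 1491 higher became 2309 with DESeq2. Leaving out 1 library gave 3576 to 4851 and 3489 to 4175, 3277 to 4636 and 3556 to 4587, 3671 to 5347 and 3460 to 4574, 368 to 2061 and 908 to 2305, and 851 to 2317 and 649 to 1728, in the order above. Sdsl in EpCAM-positive cells against hepatocytes was lost with library totals (adjusted p = 0.0638) and the deposited scaling (0.0587).

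The labels share replicate numbers but do not say that a number marks shared mice, and each comparison has only 2 pairs. Deviations of same-numbered libraries correlated across genes with r of 0.177 to 0.494, and genes are not independent replicates. With the replicate block the enzymes called lower were 32 in each comparison with hepatocytes, and the calls of Kynu between the b-gal gates (0.0532) and Aass against F4/80high cells (0.0522) were lost, while Kmo between the gates (0.0296) and Gldc against F4/80high cells (0.0355) were gained. In each library outside hepatocytes 1 to 3 enzymes had 3 reads or fewer, and differences between their levels there are not detectable at this depth.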

Other observations

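Oat, which turns ornithine into a proline precursor, and Glul, which makes glutamine from ammonia, differed between the hepatocyte replicates, at 660 and 1676 CPM and at 286 and 1189 CPM. Glul was at 914 and 700 CPM in the b-gal+ gate, 569 and 405 CPM in the b-gal- gate and 295 and 217 CPM in EpCAM-positive libraries, and did not pass against hepatocytes in any of the 3 groups (limma, adjusted p = 0.132, 0.564 and 0.715, in the order EpCAM-positive, b-gal+ and b-gal-). Odc1, which makes putrescine from ornithine, was at 44.0 and 23.4 CPM in EpCAM-positive cells and 14.5 and 13.8 CPM in hepatocytes, and was higher there by 1.16 on the log2 scale (adjusted p = 0.0125). Pycr1, of proline synthesis, was at 6.50 and 2.69 CPM in EpCAM-positive cells and at most 1.01 CPM in the other 6 libraries, and was higher than in hepatocytes by 2.37 (adjusted p = 0.00339). These 4 genes were chosen after their values were seen.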
